A study of Mus musculus with 6 samples.

Results

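The genes described here handle ATP and adenosine outside cells, or NAD+, which feeds the same route. They are 8 genes chosen by name among the 55291 genes of the deposited table: the ectonucleotidases Entpd1 and Nt5e, the NAD+-consuming enzyme Cd38, the ATP-gated channel P2rx7, the adenosine receptors Adora2a and Adora2b, and the adenosine-consuming enzymes Ada and Adk. All 8 were found in the table and all 8 passed the filter on low counts. Bulk RNA-seq was made from tumours grown under the skin from CT2A, a glioma cell line of the mouse. Tumours from mice lacking Siglece (KO) gave 3 libraries and tumours from WT mice gave 3, and KO is compared with WT. Every tumour was grown from the same single cell line. The labels give no age, treatment, allele or mouse strain beyond KO and WT, and name no promoter or cell type in which the deletion acts. The labels' protocols give an input of 5000 to 20000 CT2A cells and Smart-seq2, which copies whole transcripts and keeps no strand information. The labels name brain as the source and a subcutaneous tumour as the tissue, and do not say whether each library came from a separate mouse, so p-values measure the spread between these libraries. No sort is named, and host and tumour cells share the mouse genome, so their RNA is counted together.

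Extracellular ATP is released by stressed and dying cells and acts as an alarm signal through P2 receptors such as P2rx7, whose opening activates the inflammasome in macrophages. CD39, the product of Entpd1, cuts ATP and ADP to AMP, and CD73, the product of Nt5e, cuts AMP to adenosine. CD38 consumes NAD+ and gives ADP-ribose, which other ectoenzymes can turn into AMP. Adenosine acts on the Adora2a and Adora2b receptors, raises cyclic AMP and dampens T cells and macrophages, and is removed by deamination (Ada) or, inside cells, by phosphorylation to AMP (Adk). In tumours, including glioma, CD39 is best known on macrophages and regulatory T cells.

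The libraries held 24369359 to 40574093 counts. A count of 0 allows up to 3 counts, which is 0.0819 to 0.149 CPM (counts scaled to the library total) and covers counting error only. Siglece had 0, 8 and 0 counts in KO replicates 1, 2 and 3, against 74, 99 and 64 counts in WT replicates 1, 2 and 3. The KO libraries differed among themselves: across the 18621 genes tested, the log2 CPM of KO replicate 2 correlated at Pearson's r of 0.964, 0.960 and 0.936 with WT replicates 2, 3 and 1, and at 0.923 and 0.864 with KO replicates 1 and 3. Genes are not independent replicates. In the edgeR quasi-likelihood test, 11.2% of all genes tested were higher in KO and 0.226% were lower at an adjusted p of 0.05, and 44.1% had KO and WT values that did not overlap. Results on the 8 genes are read against these shares. Beside the glioma label, 7 glial and neural genes were read (Gfap, Slc1a3, Olig2, Sox2, Nes, Cspg5, Cntn1). They summed to 67.5, 555 and 44.3 CPM in KO replicates 1, 2 and 3, against 781 to 809 CPM in WT. All 7 had lower values in each KO library than in any WT library, and 3 of them fell. The label itself was not tested.

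The sequences before the start sites of Entpd1, Ada, P2rx7 and Adk are shown because they belong to genes with different outcomes: Entpd1 and Ada were higher in KO, P2rx7 was near its WT level, and Adk was lower in each KO library. RefSeq (GRCm38.p6) gave windows for 7 of the 8 genes; Adora2a is named only. Each line ends at the last base before the start site, except for P2rx7 (first start), where it ends 16 bases earlier, and holds the longest stretch of the 250 bases before the start that lies outside every exon of the deposited table. Capitals mark 6 motifs found on either strand: the GC box GGGCGG, the CCAAT box, TATAAA, the hypoxia element core ACGTG, the core TGACG of the cyclic AMP element and the PU.1 core GAGGAA. In Adk a CCAAT box, read on the other strand, overlaps a GC box, and another GC box lies directly before a TGACG.
Entpd1, first start, chr19:40612234-40612365, plus strand: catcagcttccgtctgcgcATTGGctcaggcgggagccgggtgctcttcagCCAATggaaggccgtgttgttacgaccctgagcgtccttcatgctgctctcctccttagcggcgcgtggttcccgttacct
Entpd1, second start, chr19:40659520-40659769, plus strand: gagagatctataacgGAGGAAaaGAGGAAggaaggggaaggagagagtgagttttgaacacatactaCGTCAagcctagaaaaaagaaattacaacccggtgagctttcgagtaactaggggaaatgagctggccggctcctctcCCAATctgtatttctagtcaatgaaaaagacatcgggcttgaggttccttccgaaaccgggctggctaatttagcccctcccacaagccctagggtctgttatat
Ada, chr2:163750240-163750489, minus strand: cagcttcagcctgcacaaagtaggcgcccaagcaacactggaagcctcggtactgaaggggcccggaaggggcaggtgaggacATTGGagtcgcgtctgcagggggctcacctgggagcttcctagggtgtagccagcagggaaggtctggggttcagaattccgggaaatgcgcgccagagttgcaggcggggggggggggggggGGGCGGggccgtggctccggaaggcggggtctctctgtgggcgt
P2rx7, first start, chr5:122643677-122643910, plus strand: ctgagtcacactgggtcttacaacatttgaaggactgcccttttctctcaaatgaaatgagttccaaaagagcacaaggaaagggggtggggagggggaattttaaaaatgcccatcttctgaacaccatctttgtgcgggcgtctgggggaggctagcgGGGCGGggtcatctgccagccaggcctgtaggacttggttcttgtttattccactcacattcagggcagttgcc
Adk, first start, chr14:21052509-21052573, plus strand: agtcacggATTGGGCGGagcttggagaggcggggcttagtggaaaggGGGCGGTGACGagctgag

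Among all 32851 RefSeq windows of 250 bases, 32.7% hold a GC box, 33.8% a CCAAT box, 12.4% TATAAA, 16.6% ACGTG, 17.8% TGACG and 23.3% GAGGAA. Of the printed stretches, the second Entpd1 start alone holds GAGGAA, at 2 places, and none holds TATAAA or ACGTG. A match describes letters and was not tested as a site. The counts are per gene, so the use of one Entpd1 start over the other was not resolved.

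Of the 8 genes, 4 rose and 0 fell in KO, against 11.2% and 0.226% of all genes tested. Entpd1 rose 5.18-fold, Cd38 12.8-fold, Adora2a 6.10-fold and Ada 3.83-fold. Adora2b was higher and Adk lower in each KO library than in any WT library without passing, and Nt5e and P2rx7 had overlapping groups. Groups did not overlap for 6 of the 8 genes, 5 higher and 1 lower, against 44.1% of all genes tested, 24.6% higher and 19.5% lower. The median log2 fold change was 1.91 over the 8 genes and -0.05 over all genes tested.

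**Figure D1:**
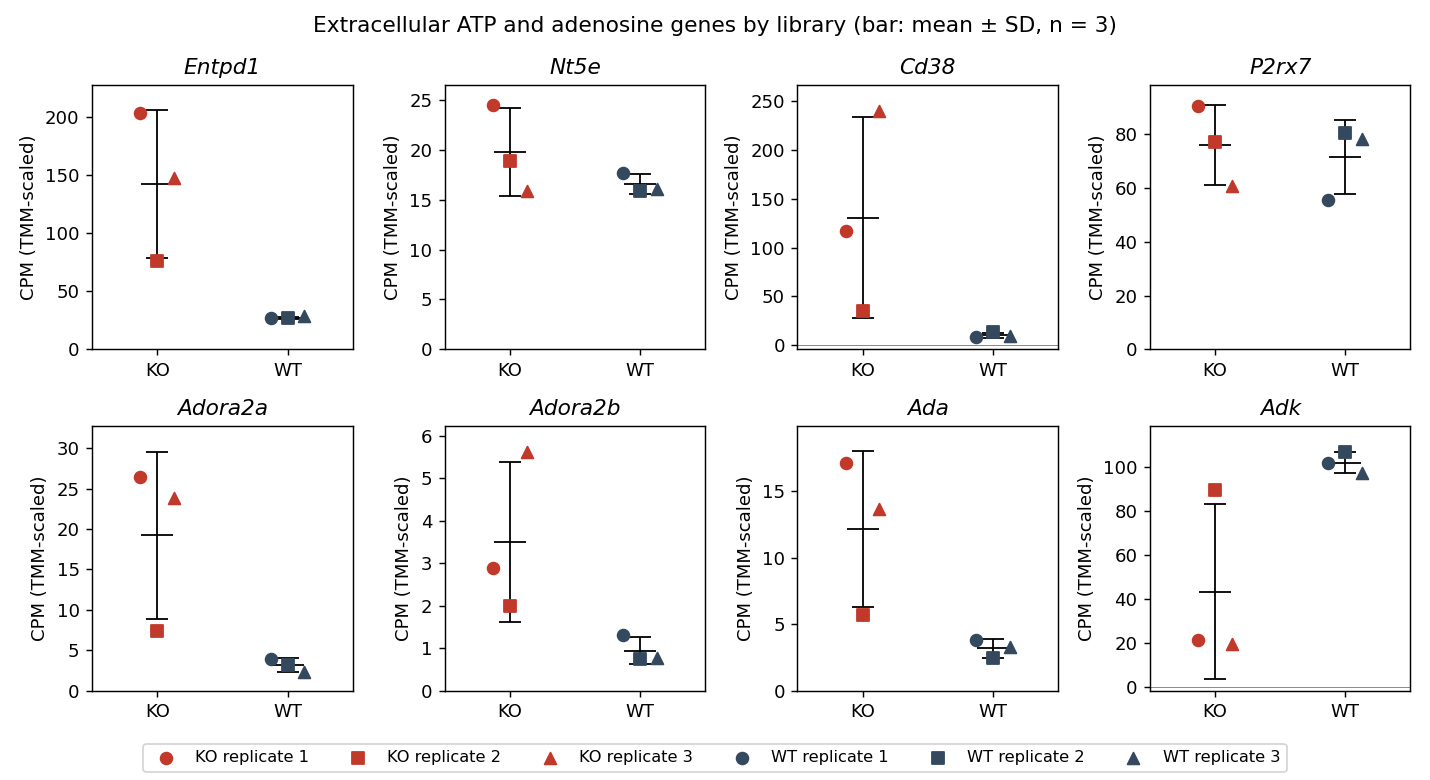
CPM (on TMM-scaled library sizes, vertical axis from 0) of the 8 genes in each library; KO libraries are red and WT libraries dark, the marker shape gives the replicate number, which names a library and pairs nothing, and bars are the mean ± SD (n = 3). Entpd1, Cd38, Adora2a, Adora2b and Ada lie above the WT range in every KO library, Adk lies below it, and KO replicate 2 is the KO library nearest to WT for these 6 genes.

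The ectonucleotidases were taken first. Entpd1 (ENSMUSG00000048120.16) lies on the plus strand of chromosome 19 at 40612366 to 40741602 (mm10, as for all positions of genes here), with 5580 bases of merged exons. It had 203, 76.3 and 147 CPM in KO replicates 1, 2 and 3, against 26.8, 27.1 and 28.4 CPM in WT replicates 1, 2 and 3. The WT libraries lay within a narrow band, and the lowest KO library, replicate 2, was still well above it. The mean was 142 ± 63.5 CPM in KO tumours against 27.4 ± 0.872 CPM in WT (SD, n = 3 each), and the log2 fold change was 2.37 (SE 0.38, edgeR adjusted p = 0.0246).

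Nt5e (ENSMUSG00000032420.8) lies on the plus strand of chromosome 9 at 88327197 to 88372092, with 8602 bases of merged exons. Its level was 24.5, 18.8 and 15.8 CPM in KO replicates 1, 2 and 3, against 17.7, 15.9 and 16.0 CPM in WT replicates 1, 2 and 3. KO replicates 1 and 2 were above the WT range and KO replicate 3 was below it. The log2 fold change was 0.25 (SE 0.28, 95% interval -0.40 to 0.91, edgeR adjusted p = 0.542), so that a change of the size seen for Entpd1 lies outside the interval.

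Entpd1 and Nt5e, whose enzymes act in succession from ATP to adenosine, were also set against each other. Within a library, Entpd1 minus Nt5e on the log2 CPM scale was 3.05, 2.01 and 3.21 in KO replicates 1, 2 and 3, against 0.60, 0.76 and 0.82 in WT replicates 1, 2 and 3. The KO libraries were all higher, by 2.03 on average (exact two-sided permutation p = 0.1, the smallest that 3 against 3 libraries can give). Adjusted over the 7 within-library ratios computed, p was 0.175. Apart from the prior count of 2 added in log2 CPM, such a ratio does not depend on the scaling between libraries.

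Cd38 (ENSMUSG00000029084.5) lies on the plus strand of chromosome 5 at 43868553 to 43912375, with 3890 bases of merged exons. Its product is the main NAD+ glycohydrolase of immune cells. It had 117, 35.2 and 239.5 CPM in KO replicates 1, 2 and 3, against 8.11, 13.2 and 9.18 CPM in WT replicates 1, 2 and 3. KO replicate 3 was highest and the lowest KO library exceeded the highest WT library. The mean was 131 ± 103 CPM in KO tumours against 10.2 ± 2.70 CPM in WT (SD, n = 3 each), and the log2 fold change, 3.68 (SE 0.67, edgeR adjusted p = 0.0246), was the greatest of the 8 genes.

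Of the receptors, the ATP-gated channel P2rx7 (ENSMUSG00000029468.17) lies on the plus strand of chromosome 5 at 122643911 to 122691432, with 5970 bases of merged exons. It had 90.5, 77.1 and 60.6 CPM in KO replicates 1, 2 and 3, against 55.8, 80.4 and 78.4 CPM in WT replicates 1, 2 and 3. The groups overlapped throughout, with KO replicate 1 highest and WT replicate 1 lowest. Its log2 fold change was 0.09 (SE 0.27, 95% interval -0.55 to 0.73, edgeR adjusted p = 0.833), and -0.06 without composition scaling.

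Both adenosine receptors were low in WT. Adora2a (ENSMUSG00000020178.6), the high-affinity receptor through which adenosine restrains T cells, lies on the plus strand of chromosome 10 at 75316877 to 75334784, with 3062 bases of merged exons. It had 26.4, 7.43 and 23.8 CPM in KO replicates 1, 2 and 3, against 3.96, 3.19 and 2.29 CPM in WT replicates 1, 2 and 3. KO replicates 1 and 3 were close to each other and KO replicate 2 lay between them and WT. The log2 fold change was 2.61 (SE 0.54, edgeR adjusted p = 0.0272); it missed the threshold with limma-voom (0.0566).

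Adora2b (ENSMUSG00000018500.2), the receptor with lower affinity for adenosine, lies on the plus strand of chromosome 11 at 62248984 to 62266453, with 1845 bases of merged exons. It rested on few reads: 85, 70 and 113 counts in KO replicates 1, 2 and 3, against 48, 26 and 26 counts in WT replicates 1, 2 and 3. In CPM these were 2.89, 1.99 and 5.62 in KO and 1.31, 0.740 and 0.773 in WT. The groups did not overlap, but the gene did not pass (log2 fold change 1.89, SE 0.58, edgeR adjusted p = 0.0753). It passed with DESeq2 (0.0149), with limma-voom and quality weights (0.00148), and in edgeR without KO replicate 2 (0.0191).

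The enzymes that remove adenosine were taken last. Ada (ENSMUSG00000017697.3), adenosine deaminase, is on chromosome 2, minus strand, from 163726584 to 163750239, with 2002 bases of merged exons. It had 17.1, 5.72 and 13.6 CPM in KO replicates 1, 2 and 3, against 3.80, 2.45 and 3.27 CPM in WT replicates 1, 2 and 3. All KO libraries were above WT, and KO replicate 2 was nearest. The log2 fold change was 1.94 (SE 0.48, edgeR adjusted p = 0.0420); it missed the threshold with RLE scaling (0.0503) and limma-voom (0.0696).

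Adk (ENSMUSG00000039197.10), adenosine kinase, lies on the plus strand of chromosome 14 at 21052574 to 21448569, with 8526 bases of merged exons. It had 21.4, 89.5 and 19.7 CPM in KO replicates 1, 2 and 3, against 102, 107 and 97.3 CPM in WT replicates 1, 2 and 3. KO replicate 2 was just below the WT range and the other KO libraries were far below it. With this spread the gene did not pass (log2 fold change -1.23, SE 0.58, edgeR adjusted p = 0.181). The adjusted p was 0.000967 and the log2 fold change -2.33 without KO replicate 2, and 0.000237 and -2.07 with limma-voom and quality weights.

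Within a library, Ada minus Adk on the log2 CPM scale was -0.32, -3.95 and -0.53 in KO replicates 1, 2 and 3, against -4.73, -5.41 and -4.87 in WT replicates 1, 2 and 3. The KO libraries were all higher, by 3.40 on average (exact two-sided permutation p = 0.1, the smallest possible; 0.175 adjusted over the 7 ratios). KO replicate 2 lay nearer to WT than to the other KO libraries.

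Levels of different genes were compared per kilobase of merged exons, as CPM per kb. In KO tumours the order was Cd38 (33.6 ± 26.4), Entpd1 (25.5 ± 11.4), P2rx7 (12.7 ± 2.51), Adora2a (6.28 ± 3.36), Ada (6.07 ± 2.91), Adk (5.10 ± 4.67), Nt5e (2.29 ± 0.513) and Adora2b (1.90 ± 1.03), all SD with n = 3. In WT tumours it was P2rx7 (11.98 ± 2.29), Adk (11.96 ± 0.548), Entpd1 (4.91 ± 0.156), Cd38 (2.62 ± 0.694), Nt5e (1.92 ± 0.115), Ada (1.58 ± 0.339), Adora2a (1.03 ± 0.273) and Adora2b (0.510 ± 0.174), again with n = 3. Neighbours in the KO order had overlapping ranges except P2rx7 over Adora2a. Cd38 was above Entpd1 in 1 KO library only, replicate 3 (61.6 against 26.4). In the WT order the ranges of P2rx7 and Adk, of Nt5e and Ada, and of Ada and Adora2a overlapped, and the other neighbours did not.

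**Figure D2:**
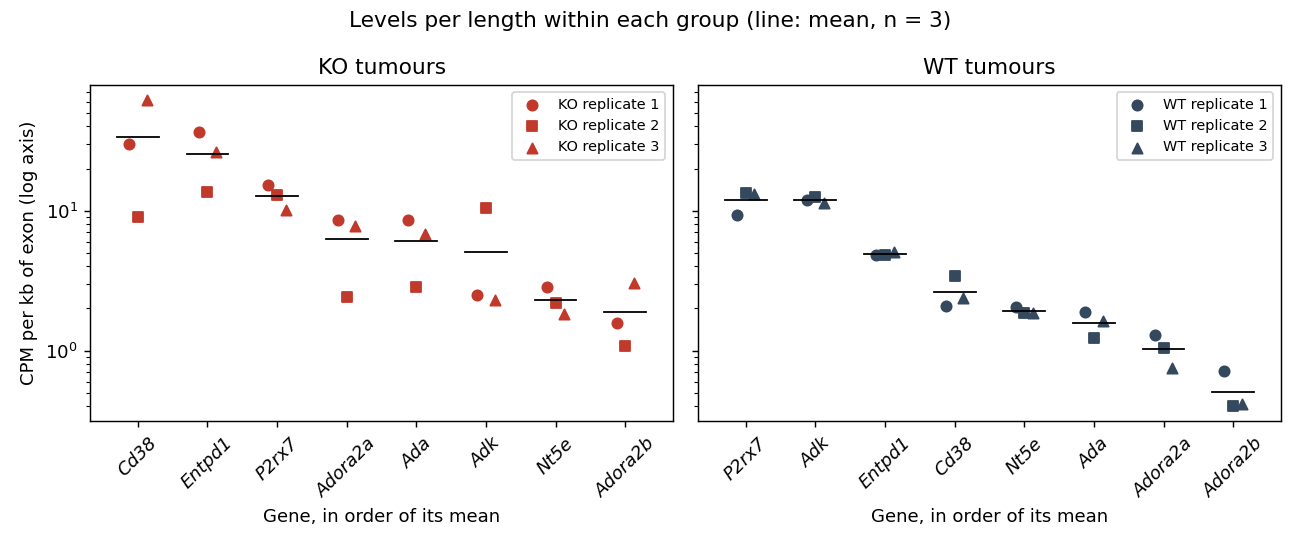
CPM per kilobase of merged exons (logarithmic axis) of the 8 genes in KO libraries (left, red) and WT libraries (right, dark), in order of the group mean, which is the black line (n = 3); marker shapes give the replicate. By group mean, Cd38 and Entpd1 lead the KO order at 33.6 and 25.5, and P2rx7 and Adk lead the WT order at 11.98 and 11.96. Cd38 is above Entpd1 in KO replicate 3 only.

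Likeness between genes was read across the 6 libraries. Pearson's r of log2 CPM, given as a description over 6 libraries that fall into groups, ran from 0.925 to 0.975 for the 6 pairs among Entpd1, Cd38, Adora2a and Ada. Adk ran against them, from -0.952 with Ada to -0.916 with Entpd1. P2rx7 had r from 0.0622 to 0.231 with the same 4 genes. Among 12653 other genes (predicted models left out) at a mean log2 CPM of 1 or more, those most like each member were Dennd1c and Tgfbr3 for Entpd1 (r of 0.999 each), Agtpbp1 and Rgl1 for Cd38 (0.999 each), Naip5 and Fam78a for Adora2a (1.00 and 0.999, the first rounded up), and Zdhhc1 and Rrad for Ada (0.998 each). For the others they were Enpp3 and Inpp5a for Adora2b (0.997 each), Pnma5 and Bcat1 for Adk (0.999 each), Nmt1 and Dus3l for Nt5e (0.996 and 0.982), and Firre and Nek9 for P2rx7 (0.988 each). An r of 0.95 or more was common for Entpd1, Cd38, Adora2a, Ada and Adk, with 9.21% to 11.6% of these genes, and rare for Nt5e and P2rx7, with 0.292% and 0.443%.

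Marker genes of several cell types were higher in KO, as were Entpd1, Cd38, Adora2a and Ada. A change in the number of cells of a type and a change in RNA per cell cannot be told apart in bulk samples. Of 10 macrophage genes 8 rose, and they summed to 7545, 2494 and 8338 CPM in KO replicates 1, 2 and 3, against 1020 to 1729 CPM in WT. Of 10 T cell genes 9 rose, with sums of 682, 200.3 and 604 CPM in KO tumours against 61.7 to 115 CPM in WT, and of 5 regulatory T cell genes 3 rose, with sums of 143, 68.8 and 116 CPM in KO tumours against 26.9 to 48.3 CPM in WT. Of 9 B and plasma cell genes 4 rose (sums of 379, 119 and 456 CPM in KO, 71.6 to 82.2 CPM in WT). Of 7 endothelial genes 6 rose (485, 306 and 1018 CPM in KO, 68.1 to 94.0 CPM in WT) and of 8 fibroblast genes 7 rose (38458, 12231 and 27283 CPM in KO, 2248 to 3598 CPM in WT).

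KO replicate 2 was again the KO library with the lowest sum in each of these 6 lists. The 5 genes of dividing cells (Mki67, Top2a, Cdk1, Ccnb1, Birc5) were lower in KO, as Adk was. They had sums of 266, 791 and 123 CPM in KO replicates 1, 2 and 3, against 1101 to 1345 CPM in WT. Of these 5, 4 had groups that did not overlap and 0 passed. The 7 glial and neural genes were also lower in each KO library than in any WT library, and 3 of them fell. Any link of Adk to either list was not tested. Neutrophil and fat cell genes were uneven: 2 of 6 neutrophil genes rose, with sums of 183, 72.2 and 277 CPM in KO tumours against 16.7 to 20.3 CPM in WT, and 1 of 5 fat cell genes rose, with sums of 98.2, 42.5 and 842.5 CPM in KO tumours against 10.3 to 25.5 CPM in WT. Ly6g, the defining neutrophil gene, was at 0 counts in all KO libraries, but 0 of the neutrophil genes tested fell. In the other lists the genes that rose were 2 of 5 for NK cells, 3 of 7 for dendritic cells, 2 of 5 for microglia, 2 of 5 for mast cells, 3 of 5 for pericytes and smooth muscle, 4 of 5 for skeletal muscle, 0 of 4 for keratinocytes and 0 of 4 for red blood cells, and 0 fell in any of them. Some listed genes were below the filter and not tested: 2 neutrophil, 2 keratinocyte, 1 microglia and 1 B and plasma cell gene. Over all genes tested, 11.2% were higher and 0.226% lower. The part of any of these cell types in the values of the 8 genes was not tested.

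**Figure D3:**
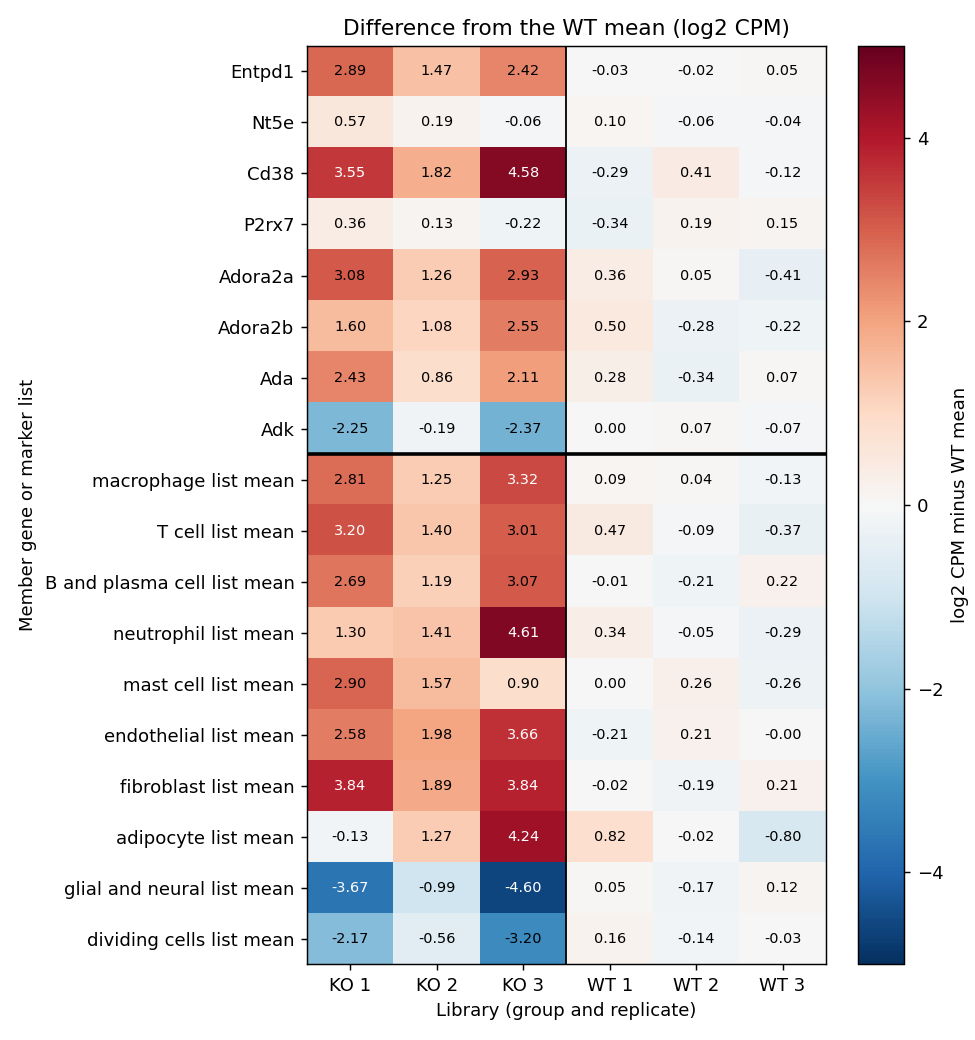
Difference of log2 CPM from the WT mean for each of the 8 genes (upper block) and for the mean of 10 marker lists (lower block) in each library; red is above and blue below the WT mean, and the number is printed in each cell. KO replicate 2 lies nearer to the WT mean than the other KO libraries for Entpd1 (1.47), Cd38 (1.82), Adora2a (1.26), Ada (0.86) and Adk (-0.19). The same holds for the macrophage (1.25), T cell (1.40), B and plasma cell (1.19), endothelial (1.98) and fibroblast (1.89) lists. It also holds for the glial and neural (-0.99) and dividing cell (-0.56) lists. KO replicate 1 is nearer than KO replicate 2 for the neutrophil (1.30 against 1.41) and adipocyte (-0.13 against 1.27) lists. KO replicate 3 is nearer for the mast cell list (0.90 against 1.57).

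Members were also set against marker lists within each library. Adora2a kept a nearly constant distance from the T cell list mean, at -1.22 ± 0.034 in KO and -1.10 ± 0.13 in WT (log2 CPM, SD, n = 3 each; exact two-sided permutation p = 0.2). Its distance from the macrophage list mean was -3.88 ± 0.33 in KO and -3.84 ± 0.28 in WT (exact two-sided permutation p = 0.7). Entpd1 minus the macrophage list mean was -0.63, -0.49 and -1.60 in KO replicates 1, 2 and 3, against -0.83, -0.77 and -0.52 in WT replicates 1, 2 and 3, with overlapping groups (exact two-sided permutation p = 0.9). For these 3 ratios the difference between groups was -0.11, -0.04 and -0.20. The log2 fold changes of Adora2a and Entpd1 themselves were 2.61 and 2.37. Entpd1 was set against no other list. Marker genes of other cell types, among them regulatory T cells and endothelial cells, rose in the same libraries. The cause of the rise was not tested. The sign turned for Entpd1 against the macrophage list without KO replicate 3 (0.15), and for Adora2a against it without KO replicate 3 (0.14) or WT replicate 1 (0.10).

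P2rx7 relative to the macrophage list and Cd38 relative to the B and plasma cell list had groups that did not overlap. Neither P2rx7 nor Cd38 was set against any other list. P2rx7 minus the macrophage list mean was -1.79, -0.47 and -2.88 in KO replicates 1, 2 and 3, against 0.23, 0.80 and 0.94 in WT replicates 1, 2 and 3, so that P2rx7 was lower relative to these markers in all 3 KO libraries, by 2.37 on average. Cd38 minus the B and plasma cell list mean was 3.87, 3.64 and 4.52 in KO, against 2.73, 3.63 and 2.67 in WT. For Cd38 the groups only just did not overlap, and the mean difference was 1.00. Both had an exact two-sided permutation p of 0.1, the smallest possible, and 0.175 adjusted over the 7 ratios.

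**Figure D4:**
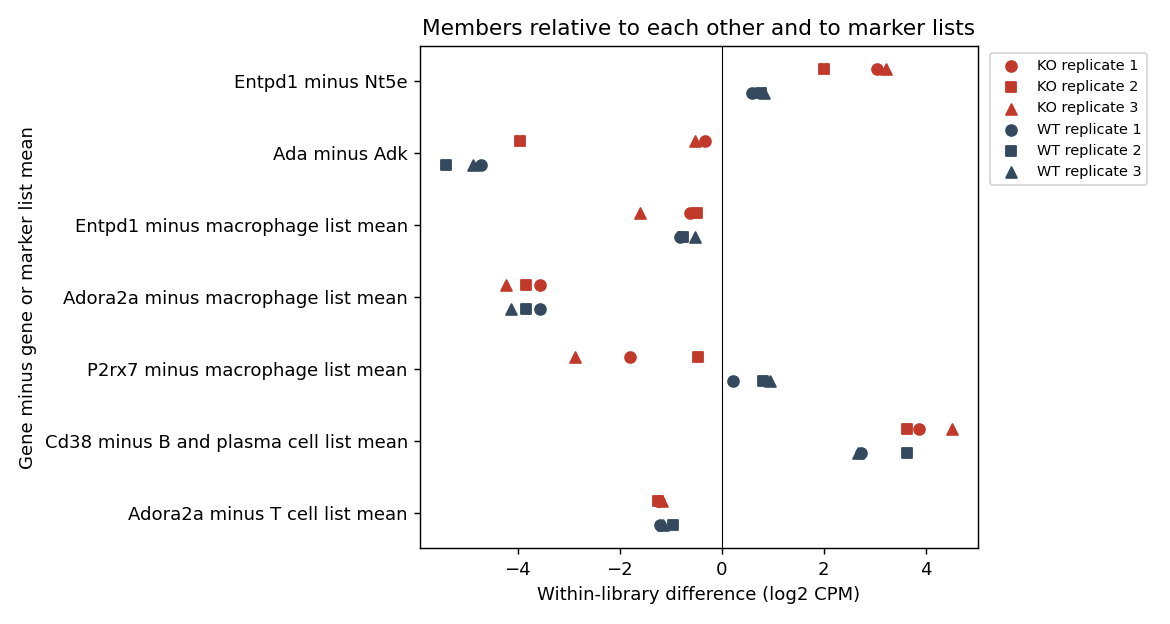
Within-library differences on the log2 CPM scale for the 7 ratios (rows), with KO libraries in red above WT libraries in dark; marker shapes give the replicate. KO and WT are apart for Entpd1 minus Nt5e, Ada minus Adk and P2rx7 minus the macrophage list, only just apart for Cd38 minus the B and plasma cell list, and overlap for Entpd1 and Adora2a against the macrophage list and for Adora2a against the T cell list.

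The other genes of the route were taken from a list of 58, of which 50 were tested. Of these, 13 rose and 0 fell, 26.0% against 11.2% higher among all genes tested, and the median log2 fold change was 1.10 against -0.05. Groups did not overlap for 22 of the 50 in the higher and 6 in the lower direction, against 24.6% and 19.5% of all genes tested. The 8 genes below the filter, among them Panx3 at 0 counts in every library, had few reads.

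Among enzymes and transporters, Slc29a3, a nucleoside transporter of lysosomes, was at 112 ± 51.9 CPM in KO tumours against 22.7 ± 1.86 CPM in WT. Slc28a2, a concentrative nucleoside transporter, was at 21.3 ± 7.23 CPM in KO tumours against 6.54 ± 0.444 CPM in WT. Dpp4, whose human product anchors adenosine deaminase at the cell surface, was at 14.9 ± 8.16 CPM in KO tumours against 2.59 ± 0.283 CPM in WT. Entpd2, an ectonucleotidase that prefers ATP, was at 30.8 ± 24.1 CPM in KO tumours against 5.40 ± 1.49 CPM in WT. These 4 passed in edgeR with log2 fold changes of 2.30, 1.70, 2.52 and 2.51 (adjusted p = 0.0246, 0.0282, 0.0281 and 0.0380; SD, n = 3 for each group).

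Of the 14 genes of the list with a P2rx or P2ry symbol, 13 were tested: 5 rose, 0 fell and 8 did not pass. Over all genes tested, 11.2% were higher and 0.226% lower. Groups did not overlap for 8 of these 13 in the higher and 3 in the lower direction, against 24.6% and 19.5% of all genes tested. The 3 lower ones, named after their values were seen, were P2rx2, P2ry1 and P2ry10. Their log2 fold changes were -1.26, -1.71 and -0.80 (edgeR adjusted p = 0.208, 0.0906 and 0.115). Of those that rose, P2ry6, the receptor for UDP, was at 83.1 ± 42.9 CPM in KO tumours against 14.7 ± 1.38 CPM in WT, and P2ry14, the receptor for UDP-glucose, was at 21.4 ± 10.8 CPM in KO tumours against 4.33 ± 0.407 CPM in WT (log2 fold changes 2.50 and 2.31). P2rx6 and P2rx1, ATP-gated channel subunits, rose by 3.74 (SE 0.82) and 3.59 (SE 0.85) on the log2 scale, with levels of 3.57 ± 2.19 and 3.12 ± 2.83 CPM in KO tumours against 0.262 ± 0.191 and 0.253 ± 0.117 CPM in WT. The edgeR adjusted p was 0.0246 for P2ry6 and P2ry14, 0.0305 for P2rx6 and 0.0362 for P2rx1. P2rx6 had 17, 3 and 8 counts and P2rx1 had 12, 11 and 4 counts in WT replicates 1, 2 and 3. Without KO replicate 3 the log2 fold change of P2rx1 was 2.52, that of P2rx6 ran from 3.11 without KO replicate 1 to 4.42 without WT replicate 1, and neither passed with limma-voom (adjusted p = 0.0743 for P2rx1 and 0.0575 for P2rx6).

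The 5 remaining genes that passed are named after their values were seen. P2rx4, an ATP-gated channel of macrophages, was at 217 ± 104 CPM in KO tumours against 64.9 ± 4.66 CPM in WT, and Bst1, a relative of Cd38 that also consumes NAD+, at 32.7 ± 19.3 CPM in KO tumours against 8.50 ± 1.77 CPM in WT. Ampd1, an AMP deaminase, was at 5.02 ± 2.997 CPM in KO tumours against 0.863 ± 0.348 CPM in WT. Nlrp3 and Casp1, the sensor and protease of the inflammasome that P2rx7 can activate, changed by 2.05 (SE 0.50) and 1.43 (SE 0.35) on the log2 scale. The edgeR adjusted p of these 5 genes ran from 0.0386 to 0.0457.

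Further genes of the list, also named after their values were seen, did not pass. Pycard, the inflammasome's adaptor, had a log2 fold change of 1.72 (adjusted p = 0.0609, edgeR), and the substrates Il1b and Il18 had 1.42 (0.161) and 0.91 (0.210). Panx1, a channel that releases ATP, had 1.26 (0.0533) and Entpd5, a nucleotidase of the endoplasmic reticulum, 1.30 (0.0565). The remaining adenosine receptors, Adora1 and Adora3, had 1.84 (0.181) and 1.67 (0.103). P2ry1, a receptor for ADP, was lower in each KO library than in any WT library, at 7.98 ± 6.31 CPM in KO tumours against 26.2 ± 3.62 CPM in WT, with a log2 fold change of -1.71 (0.0906).

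The most abundant list genes that did not pass included 2 with lower values in KO. Slc29a1, the main equilibrative adenosine transporter of the cell surface, was at 88.9, 149 and 103 CPM in KO replicates 1, 2 and 3, against 329, 216 and 196 CPM in WT replicates 1, 2 and 3 (log2 fold change -1.12, SE 0.34, edgeR adjusted p = 0.0741). Ahcy, which splits S-adenosylhomocysteine to adenosine and homocysteine, was at 45.6 ± 34.1 CPM in KO tumours against 123 ± 10.2 CPM in WT (log2 fold change -1.43, SE 0.50, adjusted p = 0.105). The groups did not overlap for either gene. Pnp, Cant1, Ampd2 and Nt5c, enzymes of purine and nucleotide breakdown, had log2 fold changes of 0.23, 0.32, -0.12 and 0.13 with overlapping groups (adjusted p from 0.383 to 0.806).

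**Figure D5:**
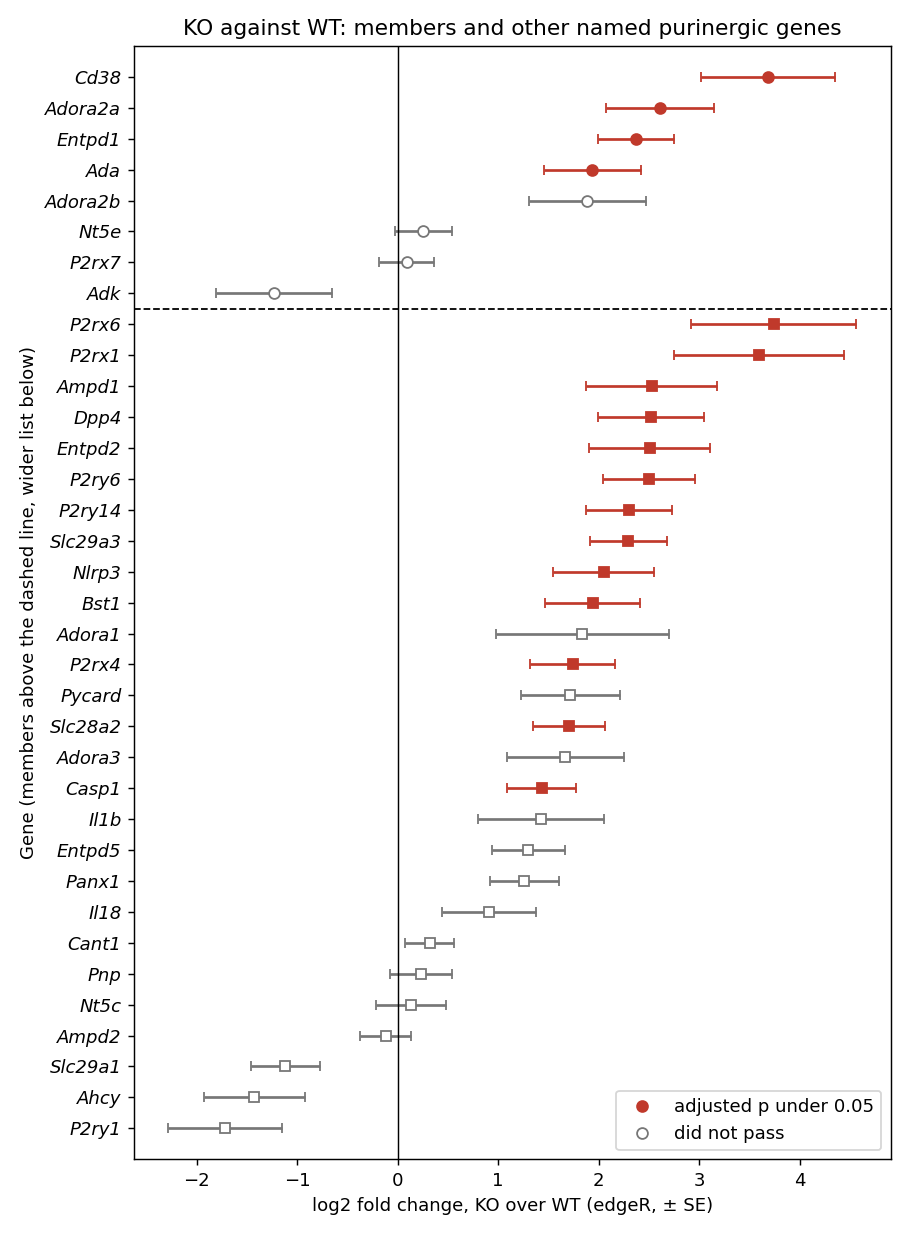
Log2 fold change of KO over WT with its SE (horizontal axis, edgeR) for the 8 genes (circles, above the dashed line) and the other named genes of the list (squares, below it); filled red symbols passed an adjusted p of 0.05 and open grey ones did not. The filled symbols all lie to the right of 0, from 1.43 for Casp1 to 3.74 for P2rx6.

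The calls depended on single libraries. With KO replicate 1 or any single WT library left out, edgeR called 0 of all genes tested, and so 0 of the 8 and 0 of the wider list, while 3461, 4931, 4282 and 4246 genes (without KO replicate 1, then without each WT replicate from 1 to 3) had an unadjusted p under 0.05. In those 4 fits DESeq2 called 2084, 3099, 2569 and 2503 genes and limma-voom called 0. The unadjusted edgeR p then ran from 0.000897 to 0.00252 for Entpd1, 0.00156 to 0.00644 for Cd38, 0.00529 to 0.00657 for Adora2a and 0.0113 to 0.0210 for Ada. The same genes remained higher in KO, with log2 fold changes over all 6 such fits of 1.96 to 2.66, 2.88 to 4.11, 2.24 to 2.98 and 1.54 to 2.26. Without KO replicate 3, Entpd1 and Cd38 passed (adjusted p = 0.0454 each) and Adora2a and Ada did not (0.0588 and 0.0966), and 3 genes of the wider list passed.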

How the data were processed

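RNA-seq was measured in 6 libraries, 3 KO and 3 WT. The authors deposited raw read counts per gene, with merged exon lengths, for 55291 genes. The submitters' processing notes list mm10 and DESeq2. Aligner, annotation and strand setting: not given in the sources used here. KO was compared with WT by the two-sided quasi-likelihood F test of edgeR 4.0.16 in R 4.3.3 (TMM, filterByExpr defaults), with Benjamini-Hochberg adjustment over 18621 genes and a threshold of 0.05. SE was approximated as the absolute log2 fold change over the square root of F, and 95% intervals used edgeR's total degrees of freedom. CPM used TMM-scaled library sizes; log2 CPM had a prior count of 2. Ratios within a library were compared by exact permutation. Alternatives were RLE scaling, no composition scaling, DESeq2 1.42.0, limma-voom (limma 3.58.1) with and without quality weights, robust fitting, no filter on low counts, a stricter filter (50 counts in 3 libraries), a prior count of 0.5 for ratios, and each library left out. Replicate numbers follow accession order and pair nothing. Named from the wider list were up to 8 genes per direction with the smallest p among those that passed and the 6 most abundant that did not; others are said to be named after their values were seen. The 8 genes and all lists were chosen with earlier results of these data known. Gene identifiers came from GENCODE M21 and promoter sequences from RefSeq. Reads of overlapping genes cannot be told apart without strand; genes overlapping Entpd1, Cd38, P2rx7 and Adk had 28, 110, 0 and 0 counts in all.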

Additional observations from a re-analysis of the deposited data

How the results depend on the processing

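Entpd1, Cd38, Adora2a, Adora2b, Ada, Nt5e and Adk kept their direction in 14 of 14 alternatives, and P2rx7 in 11: its log2 fold change was -0.058 without composition scaling and ran from -0.10 to 0.21 with 1 library left out, below 0 without KO replicate 1 or WT replicate 1. That of Nt5c ran from -0.075 to 0.52, below 0 without KO replicate 3, WT replicate 2 or WT replicate 3. Without composition scaling the median of all genes moved by -0.13 on the log2 scale. Of the 8 genes, 4 were called higher; limma-voom called 2 (Entpd1 and Cd38), and leaving out 1 library gave 0 to 5. Called lower were 0, but 1 (Adk) with limma-voom and quality weights, and 0 to 1 with 1 library left out. In the wider list 13 were called higher, against 21 with DESeq2, 4 with limma-voom, 31 with quality weights and 0 to 24 with 1 library left out. Its 0 lower calls became 4 with DESeq2, 9 with quality weights, 2 with no filter and 0 to 8 with 1 library left out. Over all genes, 2083 were higher, against 3266 with DESeq2, 988 with limma-voom, 5531 with quality weights and 0 to 4449 with 1 library left out. The 42 lower calls became 24 without composition scaling, 1244 with DESeq2, 4749 with quality weights, 476 with no filter and 0 to 3629 with 1 library left out. The highest of each range came without KO replicate 2. The share of calls that were higher was 98.0%, against 72.4% with DESeq2, 53.8% with quality weights, 85.8% with no filter and 55.1% without KO replicate 2. The ratio of Entpd1 to the macrophage list ran from -0.41 to 0.15, and that of Adora2a to it from -0.19 to 0.14, with 1 library left out. The cause of these differences was not tested. Adora2b had the fewest reads of the 8 genes, 26 to 113 counts a library. No paired analysis was possible because the labels give no replicate numbers.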

Other observations

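The nearest genes on either side of the members were also read: of these 16, 4 were higher in KO and 1 was lower. Over all genes tested, 11.2% were higher and 0.226% lower. Bst1, 24.6 kb from Cd38 and an NAD+-consuming relative of it, was higher in KO with Cd38 (log2 fold change 1.94, edgeR adjusted p = 0.0386). Fgfbp1, on the other side of Cd38 at 66.5 kb, fell, at 0.0190 ± 0.0329 CPM in KO tumours against 0.555 ± 0.239 CPM in WT (SD, n = 3 each; adjusted p = 0.0441), levels that rest on few reads. Tbx18, 596 kb from Nt5e, and Ccn5, 70.6 kb from Ada, rose by 1.75 and 2.37 on the log2 scale (adjusted p = 0.0282 and 0.0296). P2rx4 lies 16.1 kb from P2rx7 and differed from it in outcome: its log2 fold change was 1.74 (SE 0.42, adjusted p = 0.0388), against 0.09 (SE 0.27, adjusted p = 0.833) for P2rx7, and the difference between these genes was not tested. Ap3m1 starts 0.066 kb from Adk and averaged 88.3 ± 8.15 CPM in KO tumours against 84.8 ± 16.6 CPM in WT (SD, n = 3 each), while Adk was at 43.5 ± 39.8 CPM in KO tumours against 102 ± 4.67 CPM in WT. Tctn3, 0.133 kb from Entpd1, had a log2 fold change of 1.09 (SE 0.38) and did not pass (edgeR adjusted p = 0.105), although its groups did not overlap. Pkig, 0.426 kb from Ada, had 1.39 (SE 0.40, adjusted p = 0.0624). Without strand in the counts, reads of such close pairs that reach into the neighbour cannot be assigned with certainty.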
